A study of Mus musculus with 6 samples.

Results

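Reads of 50 marker genes of leukocytes, endothelial cells and mesenchymal cells were counted in epithelial cells sorted from mouse lung, as a check for RNA of other cell classes. The genes were chosen by symbol from the 48577 genes of the count tables: 19 mark leukocytes, 15 mark endothelium and 16 mark mesenchyme. All 50 symbols were found.

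C57BL/6 mice carrying the Miwi2tdTomato allele, in which the red fluorescent protein tdTomato reports Piwil4 (the gene of the Piwi protein MIWI2), were the source of both groups. Digested lungs were sorted by FACS for cells without CD45 and with EpCAM, and each of 3 mice gave 1 tdTomato-negative and 1 tdTomato-positive library. The groups therefore share the reporter allele, the digestion and both surface gates, and differ in the tdTomato gate alone. The labels name both fractions multiciliated cells but describe no gate for cilia, and they give no age and no treatment. The allele's zygosity is not given in the sources used here.

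Gene counts per library ranged from 5330584 to 6326395. Reads of tdTomato numbered 37, 16 and 18 across the positive libraries of mice 1, 2 and 3 and 0 in each negative library, so the labels and the reporter match. On the first principal component, with 37.6% of the variance, mouse 1's positive library scored 79.4 and the other 5 libraries -35.2 to 7.80. Levels are given in CPM, the counts divided by library size with edgeR's TMM factors. Where a gene had no read, its level in that library may still reach 0.475 to 0.585 CPM, which corresponds to 3 reads. This limit covers counting error only, because the RNA was amplified and molecules carried no identifier.

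Tissue digestion releases many cell classes at once, and a fluorescence sort separates them by surface proteins. CD45, the phosphatase encoded by Ptprc, is the common surface marker of leukocytes, while EpCAM is an adhesion protein of epithelium. The lung is rich in alveolar macrophages, capillary endothelium and matrix-producing fibroblasts, so transcripts of these classes are the usual check of an epithelial sort. In bulk RNA, fewer cells of a class and less RNA per cell cannot be told apart. Nor does a marker read show which of the sorted cells it came from.

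The promoters of 4 leukocyte genes are shown first because these genes, Ptprc among the markers and Lcp1, Cd53 and Cybb from a wider leukocyte list, carry the leukocyte differences that passed a test below. Each runs from 250 bases before to 50 bases after a RefSeq transcription start on GRCm38.p6. Ptprc and Lcp1 had 2 listed promoters each, and only the first listed is shown. Cd53 and Cybb had 1 each. Capitals mark GAGGAA or its reverse complement TTCCTC, the core bound by the myeloid and lymphoid ETS factor PU.1, searched on both strands with no overlap with another motif considered.
Ptprc, chr1:138175256-138175555, minus strand: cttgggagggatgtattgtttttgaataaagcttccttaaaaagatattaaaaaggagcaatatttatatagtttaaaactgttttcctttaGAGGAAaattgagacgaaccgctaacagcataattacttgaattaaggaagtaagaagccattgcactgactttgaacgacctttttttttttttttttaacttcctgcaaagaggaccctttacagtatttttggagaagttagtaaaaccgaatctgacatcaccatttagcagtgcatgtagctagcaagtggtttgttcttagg
Lcp1, chr14:75130873-75131172, plus strand: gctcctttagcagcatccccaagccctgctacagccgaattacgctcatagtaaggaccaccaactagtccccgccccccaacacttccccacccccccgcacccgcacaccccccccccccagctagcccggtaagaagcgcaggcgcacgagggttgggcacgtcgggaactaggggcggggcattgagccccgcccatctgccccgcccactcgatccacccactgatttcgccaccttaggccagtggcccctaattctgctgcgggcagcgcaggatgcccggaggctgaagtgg
Cd53, chr3:106790100-106790399, minus strand: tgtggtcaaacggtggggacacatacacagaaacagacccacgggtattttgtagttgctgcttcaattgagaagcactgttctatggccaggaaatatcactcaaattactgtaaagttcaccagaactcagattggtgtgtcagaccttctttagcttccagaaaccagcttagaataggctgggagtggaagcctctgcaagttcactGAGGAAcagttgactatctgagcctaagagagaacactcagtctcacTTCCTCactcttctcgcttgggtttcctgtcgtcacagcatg
Cybb, chrX:9469275-9469574, minus strand: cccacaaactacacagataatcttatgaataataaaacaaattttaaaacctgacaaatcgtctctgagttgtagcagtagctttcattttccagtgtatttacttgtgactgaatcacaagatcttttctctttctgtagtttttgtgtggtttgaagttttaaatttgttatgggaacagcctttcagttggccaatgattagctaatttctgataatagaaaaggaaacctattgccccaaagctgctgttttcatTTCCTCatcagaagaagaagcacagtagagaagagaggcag
The 6 letters occurred once in the windows of Ptprc and Cybb, in 2 places in that of Cd53 and in none of the letters of the Lcp1 window. They occurred in 28.3% of all 32851 promoters of this length. Of the 17 listed promoters of leukocyte markers (15 of the 19 genes had one), 52.9% held the letters, and of the 38 of the wider leukocyte genes (31 of 40) 55.3%. The letters were not particular to leukocyte lists: they were in 51.9% of the 27 promoters of other endothelial genes, 45.2% of the 31 of other mesenchymal genes, 40% of the 10 of endothelial markers and 22.2% of the 9 of mesenchymal markers. A match is a run of letters and was not tested as a binding site.

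The 50 markers together held a small share of each library. Values of 3 libraries are always given in the order of mice 1, 2 and 3. The markers took 0.0329%, 0.0818% and 0.0117% of the gene counts on the negative side, and 0.0180%, 0.0253% and 0.0125% in their positive partners. The negative library of mouse 2 held the most marker reads and the negative library of mouse 3 the fewest, so the groups overlapped. Leukocyte markers gave 1113, 4756 and 344 reads across the negative libraries and 477, 1067 and 498 across the positive ones. Endothelial markers gave 134, 148 and 110 reads, and 186, 135 and 89. Mesenchymal markers gave 507, 273 and 181, and 373, 214 and 120.

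**Figure D1:**
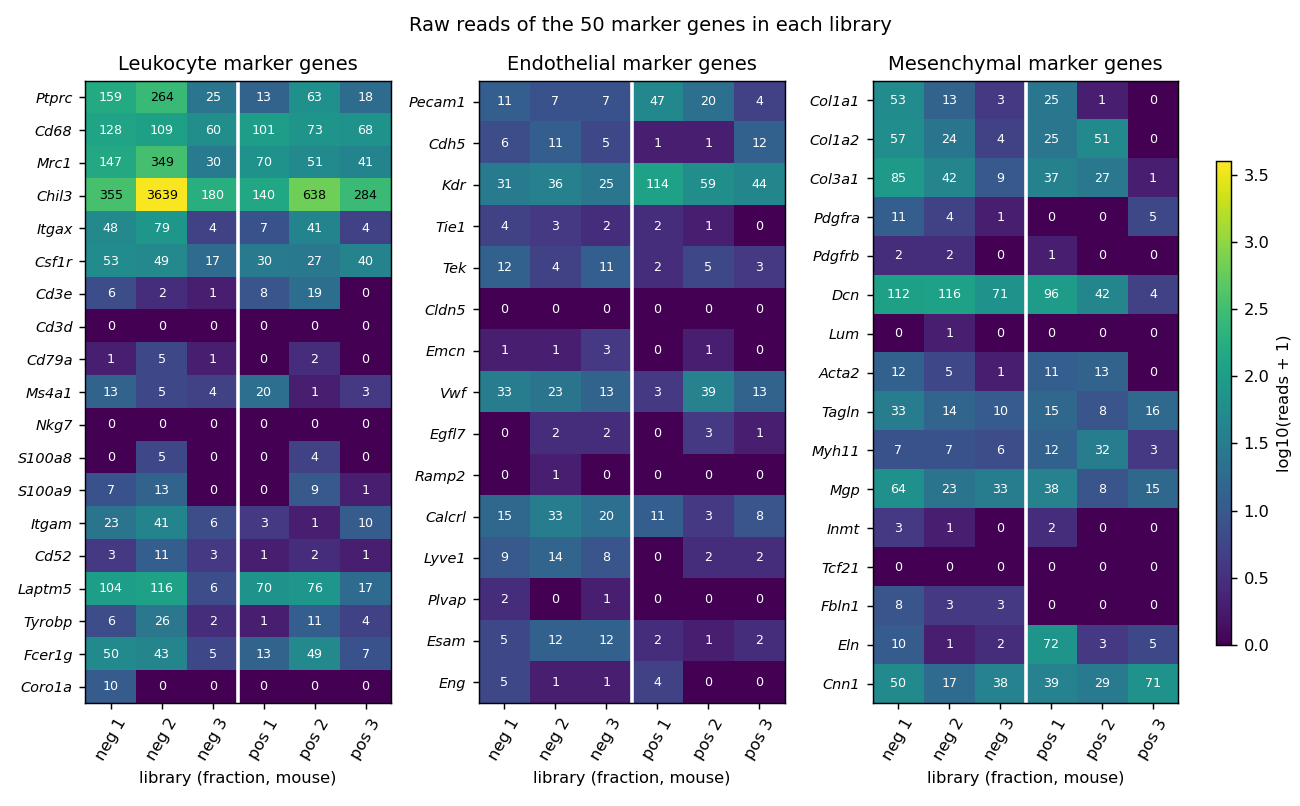
Raw reads of each of the 50 marker genes (rows) in the 6 libraries (columns, 3 tdTomato-negative left of the white line and 3 tdTomato-positive right of it), with the read count printed and coloured by log10(reads + 1). Chil3 in the negative library of mouse 2, with 3639 reads, is the brightest cell, and Cd3d, Nkg7, Cldn5 and Tcf21 are at 0 in every column.

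Several defining markers were at or near 0. No library had a read of Cd3d (a T cell receptor subunit), Nkg7 (a granule protein of cytotoxic lymphocytes), Cldn5 (the claudin of endothelial tight junctions) or Tcf21 (a transcription factor of lung fibroblasts). Ramp2 (a receptor partner of Calcrl) and Lum (the matrix proteoglycan lumican) each had 1 read, both in the negative library of mouse 2. Coro1a, an actin regulator of leukocytes, had 10 reads in the negative library of mouse 1 and 0 elsewhere. Altogether 7 markers were at 0 in at least 5 libraries, and 19 had fewer than 30 reads over all 6.

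Per length of exon, the medians of the marker classes lay under those of the epithelial lists. The median level over the 19 leukocyte markers was 1.33 CPM per kilobase of exon across the negative libraries and 0.356 across the positive ones (each gene a mean of 3 libraries). The 15 endothelial markers had medians of 0.259 and 0.0724, and the 16 mesenchymal markers 0.324 and 0.331. A list of 20 epithelial identity genes, such as Epcam and the keratins, had medians of 15.0 and 19.8, and 12 multiciliated cell genes 69.8 and 80.1. Single macrophage markers overlapped the epithelial genes: Chil3 was at 164 CPM per kilobase in the negative and 34.7 in the positive group, and Cd68 at 15.2 and 10.4. Fcer1g, Mgp, Mrc1, Laptm5, Dcn and Tyrobp, at 7.22 to 3.27 in the negative group, were above the lowest epithelial identity gene there, Cldn4 at 2.86.

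**Figure D2:**
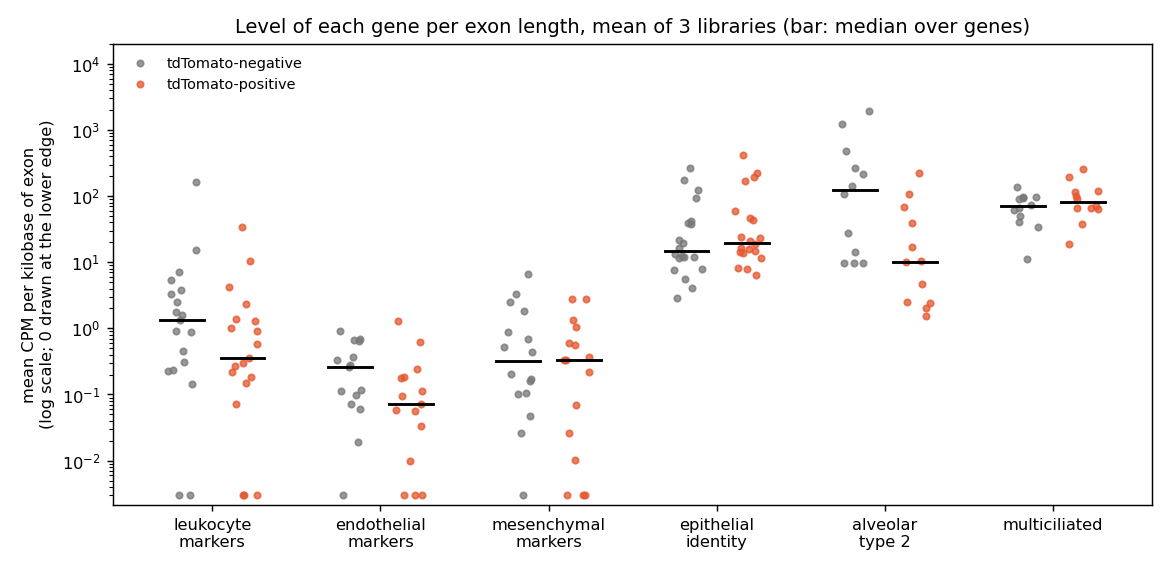
Mean level of each gene in CPM per kilobase of exon (log axis, genes at 0 drawn at the lower edge) in 3 tdTomato-negative (grey) and 3 tdTomato-positive (orange) libraries, 1 point per gene, with a bar at the median of each list. The medians of the 3 marker classes lie between 0.0724 and 1.33, and those of the epithelial identity, alveolar type 2 and multiciliated lists between 10.3 and 126.

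Ptprc and Epcam encode the proteins of both surface gates, and their RNA levels do not measure the protein on the sorted cells. Ptprc (chr1:138062861-138175708 on GRCm38, ENSMUSG00000026395.16) was at 30.8, 50.7 and 4.87 CPM across the negative libraries of mice 1, 2 and 3 and at 2.20, 9.97 and 2.86 CPM across the positive ones. The positive library was the lower one in each mouse, while the groups overlapped through the low negative library of mouse 3. Epcam was at 56.6, 92.6 and 96.7 CPM across the negative and 87.5, 77.1 and 138 CPM across the positive libraries. Its log2 change of 0.30 ± 0.26 (SE, positive over negative) did not pass (edgeR adjusted p = 0.720, and 0.494 with the mouse as a block). Per kilobase of exon, the level of Epcam was 15.3, 15.2 and 166 times that of Ptprc on the negative side and 332, 64.5 and 403 times on the positive side. The ratio was higher in the positive library of each mouse, and the negative library of mouse 3 lay among the positive ones.

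Ptprc was the one marker that edgeR called over all 6 libraries, and it was called with the mouse as a block but not without it. Its level was 28.8 ± 23.0 CPM across the negative and 5.01 ± 4.31 CPM across the positive libraries (SD, n = 3 each). Without a mouse term the log2 change was -2.51 ± 0.91 (SE) and did not pass (edgeR adjusted p = 0.41). With the mouse as a block it was -2.37 ± 0.44, a 5.15-fold lower level in the positive fraction (edgeR adjusted p = 0.00502). DESeq2 gave an adjusted p of 0.316 without the block and 0.000211 with it. Left without mouse 1, whose positive library stood apart, the blocked adjusted p was 0.000744 by edgeR, and without mouse 2 or 3 it was 0.0618 or 0.0304, each from 2 pairs.

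Only 20 of the 50 markers had enough reads for the fit across all genes (filterByExpr with a minimum count of 10): 8 leukocyte, 4 endothelial and 8 mesenchymal. Without the block none of the 20 was called by edgeR or by DESeq2 at an adjusted p under 0.05, and 4 (Ptprc, Mrc1, Kdr and Calcrl) had an unadjusted edgeR p under 0.05, as did 10.7% of all genes. Of all 13175 genes tested, 0.622% were called without the block, 0.577% lower and 0.0455% higher in the positive fraction. With the block, 1 marker was called by edgeR and 9 had an unadjusted p under 0.05, beside 3.15% of all genes called (1.79% lower and 1.36% higher) and 15.9% with an unadjusted p under 0.05. DESeq2 with the block called Ptprc and Dcn, beside 3.45% of all genes with an adjusted p. The 20 markers had a median log2 change of -0.78 without the block and -0.82 with it, beside 0.03 and 0.000555 over all genes. Among the 20, 16 had a log2 change below 0, beside 47.3% of all genes. This is a description of these libraries, since some markers, such as Calcrl, passed the filter through the group where they were higher.

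**Figure D3:**
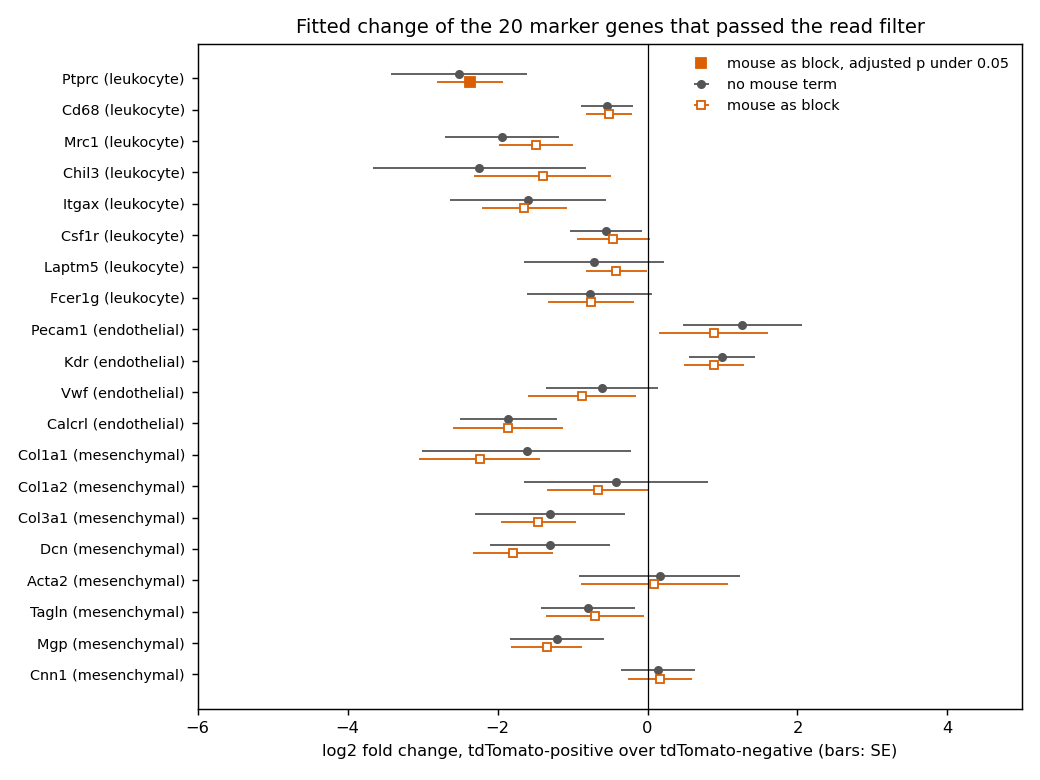
Log2 fold change (x axis, tdTomato-positive over tdTomato-negative, bars are standard errors) of the 20 marker genes with enough reads, from edgeR without a mouse term (grey circles) and with the mouse as a block (orange squares). The filled square, Ptprc at -2.37, is the one call, and Pecam1, Kdr, Acta2 and Cnn1 lie right of 0 in both fits.

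Most leukocyte markers with enough reads had no common direction in all 3 mice. Over these 8, Ptprc among them, 3 (Ptprc, Cd68 and Itgax) were lower in the positive library of each mouse, an order seen in 18.8% of all genes tested. The median log2 change was -1.18 without the block, and the medians within mice 1, 2 and 3 were -1.41, -1.18 and 0.17. Of the 17 leukocyte markers with any read, 11 were highest in the negative library of mouse 2 and 4 in that of mouse 1. Chil3, a chitinase-like protein secreted by alveolar macrophages, had 355, 3639 and 180 reads across the negative and 140, 638 and 284 across the positive libraries. The negative library of mouse 2 alone was far above the rest. Its log2 change was -2.24 ± 1.42 (edgeR adjusted p = 0.639) and became 0.11 without that library. Chil4, a near-identical neighbour, had 3, 23 and 4 reads and 1, 12 and 0. Reads that match both genes may have been left out of both as aligned to several places.

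Mrc1, the mannose receptor of macrophages, had 147, 349 and 30 reads across the negative and 70, 51 and 41 across the positive libraries. It was lower in the positive library of mice 1 and 2 and not of mouse 3, and its log2 change of -1.94 ± 0.76 did not pass (edgeR adjusted p = 0.433, and 0.153 with the block). Without the negative library of mouse 3 it was called (edgeR adjusted p = 0.0425), and without that of mouse 2 the log2 change was -0.97 (adjusted p = 0.903). Cd68, a lysosomal protein of macrophages, had 128, 109 and 60 reads and 101, 73 and 68. Its positive library was slightly lower in each mouse, the groups overlapped, and the log2 change was -0.54 ± 0.35 (edgeR adjusted p = 0.608). Reads of Laptm5, a lysosomal protein of blood cells, were 104, 116 and 6, and 70, 76 and 17. Fcer1g, the gamma chain of Fc receptors, had 50, 43 and 5 reads, and 13, 49 and 7. For both genes the negative library of mouse 3 was the lowest of all 6, and neither change passed (edgeR adjusted p = 0.824 and 0.777). Itgax (CD11c) had 48, 79 and 4 reads and 7, 41 and 4. Itgax and Csf1r (the receptor for macrophage colony-stimulating factor) had log2 changes of -1.59 and -0.55 that did not pass (edgeR adjusted p = 0.627 and 0.718).

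Lymphocyte and neutrophil markers stayed under the filter. Cd3e of T cells had 6, 2 and 1 reads across the negative and 8, 19 and 0 across the positive libraries, and Ms4a1 (CD20) of B cells 13, 5 and 4, and 20, 1 and 3. The summed level of the 5 lymphocyte markers was 1.17 to 3.88 CPM across the negative and 0.476 to 4.73 CPM across the positive libraries, which overlap. S100a8 and S100a9, the calcium-binding proteins that fill neutrophils, together reached at most 3.46 CPM, again in the negative library of mouse 2. Cd79a, a B cell receptor subunit, had at most 5 reads a library, and Tyrobp, a signalling adaptor of myeloid cells, had 6, 26 and 2, and 1, 11 and 4. Cd52, a small glycoprotein of leukocytes, had 3, 11 and 3 reads, and 1, 2 and 1. Its groups did not overlap, on few reads, an order seen in 9.02% of the genes that passed the filter. Itgam (CD11b) had 1 to 41 reads a library and shares 68.7% of its exon bases with another annotated gene. Without the strand setting it is not known whether reads there counted for Itgam, for that gene or as ambiguous.

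**Figure D4:**
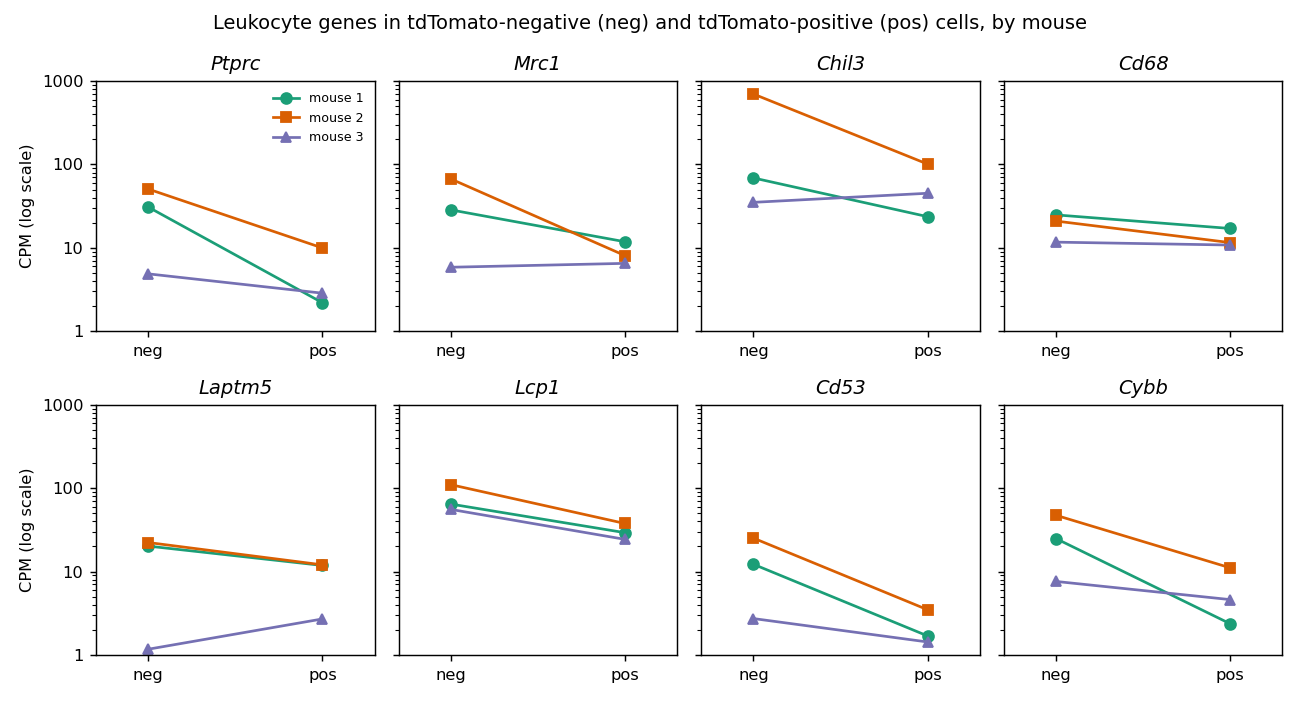
Level in CPM (log axis, shared by all panels) of 8 leukocyte genes in the tdTomato-negative and tdTomato-positive library of each mouse, joined by a line. The positive library is the lower one in all 3 mice for Ptprc, Cd68, Lcp1, Cd53 and Cybb, and in mice 1 and 2 but not mouse 3 for Mrc1, Chil3 and Laptm5.

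A wider list of 40 other leukocyte genes was read from the same fits, and 12 were tested. None was called by edgeR without the block (4 of 12 had an unadjusted p under 0.05, beside 10.7% of all genes). With the block 3 were called, all lower in the positive fraction, beside 1.79% of all genes called lower. DESeq2 without the block called the same 3, Lcp1, Cd53 and Cybb (DESeq2 adjusted p = 0.00270, 0.0105 and 0.0184). It called 1.56% of all genes with an adjusted p. The median log2 change of the 12 was -1.16, beside 0.03 over all genes. As for the markers, this describes these libraries, since a gene may pass the filter through the group where it is higher. Lcp1, the leukocyte actin-bundling protein L-plastin (chr14:75131101-75230842), was at 64.4, 110 and 55.6 CPM across the negative and 29.2, 37.7 and 24.3 CPM across the positive libraries. All 3 positive libraries lay under all 3 negative ones, an order seen in 9.02% of all genes tested. The change was -1.33 ± 0.28 on the log2 scale (edgeR adjusted p = 0.0691, and 0.000706 with the block). Cd53, a tetraspanin of leukocytes, was at 12.2, 25.2 and 2.73 CPM and at 1.69, 3.48 and 1.43 CPM, lower in each positive library of a pair but with overlapping groups (edgeR adjusted p = 0.196, and 0.0113 with the block). Cybb, the catalytic subunit of the phagocyte oxidase, was at 24.8, 47.3 and 7.60 CPM and at 2.36, 11.1 and 4.61 CPM (edgeR adjusted p = 0.340, and 0.00889 with the block). The blocked calls were lost without mouse 3 for Lcp1 (edgeR adjusted p = 0.0865), without mouse 2 or 3 for Cd53 (0.200 and 0.0580) and without mouse 2 for Cybb (0.0766).

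Endothelial markers were scarce and did not share a direction. The vascular growth factor receptor Kdr (chr5:75932827-75978458) had 31, 36 and 25 reads across the negative and 114, 59 and 44 across the positive libraries. All 3 positive libraries were above all 3 negative ones, an order seen in 8.29% of all genes tested, and the log2 change was 0.99 ± 0.44 (edgeR adjusted p = 0.452, and 0.286 with the block). Calcrl, the receptor for adrenomedullin, had 15, 33 and 20 reads and 11, 3 and 8. Here all 3 positive libraries were the lower ones, an order seen in 9.02% of all genes, and the log2 change was -1.85 ± 0.65 (edgeR adjusted p = 0.330 unblocked and 0.211 with the block). Pecam1 (CD31, an adhesion protein of endothelial junctions) had 11, 7 and 7 reads and 47, 20 and 4, so the positive library was higher in mice 1 and 2 and lower in mouse 3 (log2 change 1.26 ± 0.79, edgeR adjusted p = 0.604). Vwf, the von Willebrand factor, had 33, 23 and 13 reads and 3, 39 and 13 (log2 change -0.60, edgeR adjusted p = 0.812, and 0.22 on the log2 scale without mouse 1).

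The remaining 11 endothelial markers did not reach the filter. Lyve1, the hyaluronan receptor of lymphatic endothelium, had 9, 14 and 8 reads across the negative and 0, 2 and 2 across the positive libraries, and Esam, a junction protein, 5, 12 and 12, and 2, 1 and 2. The groups of both genes did not overlap, and in the fit without a filter their changes did not pass (edgeR adjusted p = 0.253 and 0.379). Tie1, an endothelial receptor, and Emcn, a sialomucin, also had CPM ranges that did not overlap, on at most 4 reads a library. Among the genes that passed the filter, 9.02% were lower in the positive fraction without overlap. No such share was taken for genes under the filter, where a few reads set the order. Tek, the angiopoietin receptor, had 12, 4 and 11 reads and 2, 5 and 3, while Egfl7, Plvap and Eng had at most 5 a library. Cdh5 (VE-cadherin) had 6, 11 and 5 reads and 1, 1 and 12, with mouse 3 opposite to the others. In a wider list of 35 other endothelial genes, 10 were tested and none was called by edgeR without the block (2 of 10 had an unadjusted p under 0.05, beside 10.7% of all genes). DESeq2 without the block called 1, beside 1.56% of all genes with an adjusted p. With the block Slco2a1, a prostaglandin transporter, was called lower in the positive fraction, beside 1.79% of all genes called lower. It was at 40.4, 29.4 and 33.9 CPM and at 18.2, 7.91 and 4.45 CPM (edgeR adjusted p = 0.132, 0.00227 with the block, and 0.208 with the block and without mouse 3).

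The mesenchymal markers held matrix genes, contractile genes and receptors, and the difference between these kinds was not tested. The 5 matrix markers with enough reads all had log2 changes under 0, with a median of -1.30 beside 0.03 over all genes. This too is a description, since a gene may pass the filter through the group where it is higher. Eln (elastin), a matrix gene under the filter, ran the other way: it had 10, 1 and 2 reads across the negative and 72, 3 and 5 across the positive libraries, higher in the positive library of each mouse (DESeq2 adjusted p = 0.412). Dcn, the collagen-binding proteoglycan decorin (chr10:97479609-97518143), had 112, 116 and 71 reads across the negative and 96, 42 and 4 across the positive libraries. The positive library was lower in each mouse, by little in mouse 1 and by the most in mouse 3, and the groups overlapped. Its log2 change was -1.30 ± 0.80 (edgeR adjusted p = 0.608) and -1.79 ± 0.53 with the block (edgeR adjusted p = 0.0967), and DESeq2 with the block called it (adjusted p = 0.0223). Mgp, a matrix protein that inhibits calcification, had 64, 23 and 33 reads and 38, 8 and 15, lower in the positive library of each mouse (log2 change -1.21 ± 0.62, edgeR adjusted p = 0.536, and 0.150 with the block). The fibrillar collagen genes Col1a1 and Col3a1 were also lower in each mouse, with 53, 13 and 3 reads against 25, 1 and 0, and 85, 42 and 9 against 37, 27 and 1. Neither passed (edgeR adjusted p = 0.718 and 0.684). Col1a2, the partner chain of type I collagen, had 57, 24 and 4 reads and 25, 51 and 0, and its log2 change of -0.42 turned positive without mouse 1 (0.55), its negative library (0.59) or the positive library of mouse 3 (0.17).

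Among contractile genes of smooth muscle, Cnn1 (calponin) had 50, 17 and 38 reads across the negative and 39, 29 and 71 across the positive libraries. Its fractions overlapped, with a log2 change of 0.14 ± 0.50 (edgeR adjusted p = 0.940), which turned negative without mouse 3 (-0.21) or its positive library (-0.28), and without the negative library of mouse 2 (-0.19). Acta2, the smooth muscle actin, had 12, 5 and 1 reads and 11, 13 and 0 (log2 change 0.16, edgeR adjusted p = 0.970), and its sign turned without mouse 2 (-0.45), among others. Tagln (transgelin) had 33, 14 and 10 reads and 15, 8 and 16, but it shares 67.9% of its exon bases with other annotated genes. Myh11, the smooth muscle myosin, had 7, 7 and 6 reads and 12, 32 and 3. Fbln1 (fibulin), a matrix gene, had 8, 3 and 3 reads across the negative libraries and none across the positive ones. The negative mean was 1.86 times the level of 3 reads in the positive libraries. In mice 2 and 3 the negative libraries were themselves at 3 reads, so no lower bound of the change is given. The receptors Pdgfra and Pdgfrb of fibroblasts and pericytes had at most 11 and 2 reads a library, and Inmt, a methyltransferase of lung fibroblasts, at most 3.

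Of 38 other mesenchymal genes, 10 were tested and 1, Sparc, was called lower in the positive fraction by edgeR without the block as well as with it. Of all genes, 0.577% were called lower without the block and 1.79% with it. Sparc, a secreted matrix glycoprotein that endothelium also makes (chr11:55394500-55423183), was at 27.2, 29.8 and 23.8 CPM across the negative and at 8.78, 8.23 and 3.02 CPM across the positive libraries. The groups did not overlap, at 26.9 ± 3.00 and 6.68 ± 3.18 CPM (SD, n = 3 each), an order seen in 9.02% of all genes tested. Its log2 change was -2.01 ± 0.39 (edgeR adjusted p = 0.0445, and 0.00137 with the block). Of 9 unblocked fits with a library or mouse omitted, 8 lost the call (all but that without mouse 1's positive library), and the blocked call was lost without mouse 3 (edgeR adjusted p = 0.137). The collagen VI genes Col6a1 and Col6a2 had log2 changes of -1.84 and -1.65 that did not pass (edgeR adjusted p = 0.311 and 0.279).

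The summed level of each class is a description of the libraries and was given no test. The leukocyte sum was 216, 914 and 67.1 CPM across the negative and 80.6, 169 and 79.1 CPM across the positive libraries of mice 1, 2 and 3. It was 2.68 and 5.41 times as high in the negative library of mice 1 and 2, and 0.848 times as high in mouse 3. Chil3 made up 63.8% of this sum, and without it the values were 147, 215 and 32.0 CPM, and 56.9, 67.9 and 34.0 CPM. The endothelial sum was 26.0, 28.4 and 21.4 CPM and 31.4, 21.4 and 14.1 CPM, with no common direction and with Kdr as 37.4% of it. The mesenchymal sum was 98.4, 52.4 and 35.3 CPM and 63.0, 33.9 and 19.1 CPM. It was 1.56, 1.55 and 1.85 times as high in the negative library in mice 1, 2 and 3, although the ranges of the groups overlapped.

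**Figure D5:**
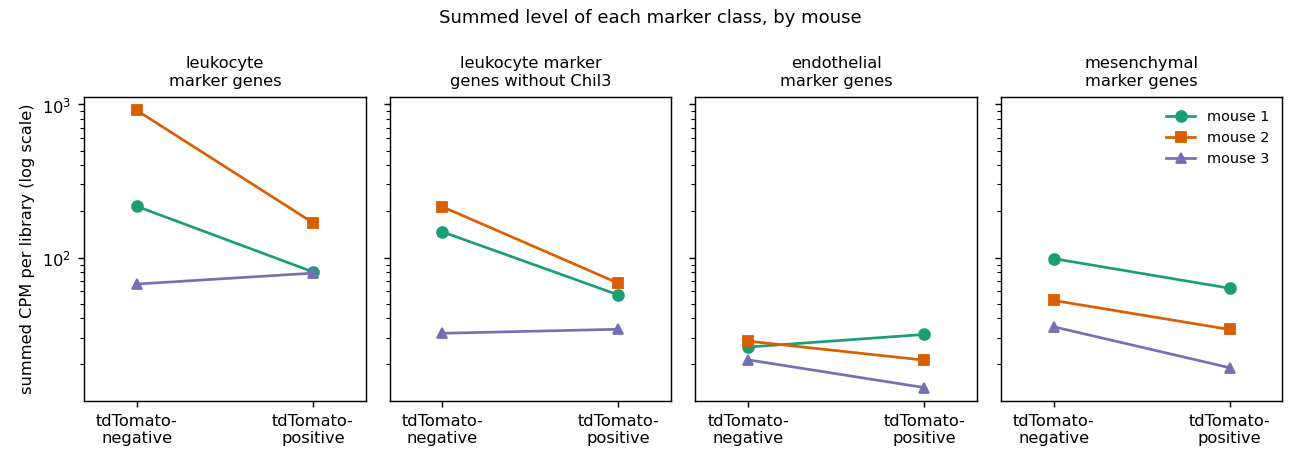
Summed level in CPM (log axis) of the leukocyte markers, the leukocyte markers without Chil3, the endothelial markers and the mesenchymal markers in the tdTomato-negative and tdTomato-positive library of each mouse, joined by a line. The leukocyte sum is lower in the positive library of mice 1 and 2 but not of mouse 3, and the mesenchymal sum is lower in all 3 mice.

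Gene lists of other cell classes, epithelial and not, did not share a direction between the fractions. The 12 alveolar type 2 genes summed to 8646, 7316 and 8779 CPM across the negative and 1047, 1234 and 615 CPM across the positive libraries. By edgeR 7 of the 12 were called lower without the block and 9 with it, beside 0.577% and 1.79% of all genes. Lyz2, the most abundant of the 12, made up 30.8% of the sum, and the part of macrophages in its reads was not tested. The 8 club cell genes summed to 6458, 6312 and 3240 CPM and to 20234, 20400 and 6407 CPM. None was called without the block by edgeR (3 had an unadjusted p under 0.05, beside 10.7% of all genes). DESeq2 without the block called 1, beside 1.56% of all genes with an adjusted p. With the block edgeR called 7 higher, beside 1.36% of all genes called higher. The 12 multiciliated genes summed to 5246 to 5413 CPM in the negative and 5739 to 6611 CPM in the positive libraries, which did not overlap. None was called without the block by edgeR or DESeq2 (4 had an unadjusted edgeR p under 0.05, beside 10.7% of all genes). With the block edgeR called 3 higher, beside 1.36% of all genes. The 20 epithelial identity genes summed to 3045, 1931 and 2516 CPM and to 3807, 2629 and 3743 CPM, and Krt19, a simple epithelial keratin, had a log2 change of 0.85 (edgeR adjusted p = 0.122 unblocked and 0.00312 with the block). Red cell and platelet genes summed to 61.3, 32.3 and 24.0 CPM and to 28.9, 15.5 and 4.45 CPM, lower in the positive library of each mouse. Of them Hbb-bs, a beta globin, was called lower with the block, beside 1.79% of all genes (edgeR adjusted p = 0.311 without it and 0.0121 with it). Of 5 mesothelial genes 4 were tested, and none was called by edgeR or DESeq2 with or without the block, nor had an unadjusted edgeR p under 0.05. The part of these cell classes in the marker differences was not tested.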

How the data were processed

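Lung cells of 3 mice were sorted into tdTomato-negative and tdTomato-positive fractions, which gave 6 RNA-seq libraries. Per the labels' protocols, total RNA was amplified (Ovation RNA-Seq System V2) before TruSeq Nano library preparation. The authors deposited raw read counts per gene symbol, with no normalization. Tools named in the submitters' processing notes are STAR 2.4.2a, cutadapt 1.7.1, FastQC, DESeq2 and HTSeq, with the builds GRCm38.p4 and mm10. Whether HTSeq counted by strand is not given in the sources used here. It is therefore not known how reads in overlapping genes were assigned, while reads found ambiguous entered no gene.

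The 5 summary rows of HTSeq did not enter library sizes: reads in no gene were 41.0% to 49.4% of all counted rows, ambiguous reads 1.31% to 1.99% and reads aligned to several places 8.26% to 12.0%. Genes passing edgeR's filterByExpr (minimum count 10) were scaled by TMM and tested with edgeR 4.0.16 (robust quasi-likelihood test, no mouse term), and p-values were adjusted by Benjamini-Hochberg over all 13175 genes kept, with a threshold of 0.05. The mouse as a block was the alternative, along with DESeq2 1.42.0, other scalings and filters, and leaving out each library or mouse. The blocked fits with other settings or without a mouse were added after seeing the data. The labels give the same individual for both libraries of a mouse, and deviations from the group means correlated within mice (r = 0.263, 0.254 and 0.346 across genes). Between mice r was -0.213 to -0.0963. These values are no separate evidence, because centring on group means makes them negative on average once those within mice are positive. CPM levels use TMM factors, and levels per kilobase use union exon lengths from the GENCODE M21 annotation of GRCm38, which also gave coordinates and exon overlaps. Promoters came from the RefSeq table of GRCm38.p6. The tests were first run on simulated data.

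The markers and lists were chosen with earlier results of these data known. Values are given for Ptprc and Epcam, the 5 markers of each class with the highest level per kilobase over all libraries, each marker called with or without the block, markers at 0 in at least 5 libraries, and up to 3 genes of each other list with the smallest p; further markers were named to account for their class after their values were seen. The replicates are 3 separate mice, each with a library in both fractions. Without the block, the p-values treat the libraries of a mouse as independent and rest on the spread between libraries within a fraction. With the block, they rest on the spread of the differences within mice.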

Additional observations from a re-analysis of the deposited data

How the results depend on the processing

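Low reads limit these results: 30 of the 50 markers had too few reads for the fit, and the calls among the rest depended on whether the libraries were paired by mouse. The mouse as a replicate block raised the genes called from 82 to 415, the markers called from 0 to 1, and the calls in the other leukocyte list to 3, other endothelial 1, epithelial identity 4, multiciliated 3, club 7, and erythroid and platelet 1. Alveolar type 2 genes called went from 7 to 9. The block changed no call among mesothelial or other mesenchymal genes. As a mean of log2 ratios within mice, the replicate block gave -1.21, -0.25 and -0.72 for the leukocyte, endothelial and mesenchymal sums, against -1.87, -0.18 and -0.68 for the ratio of group means.

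With the block and DESeq2, 464 genes were called, with 2 markers and, in the lists, 3 other leukocyte, 1 other endothelial, 5 epithelial identity, 11 alveolar type 2, 3 multiciliated, 7 club, and 1 erythroid and platelet. With the block and RLE size factors, the library size only or a stricter filter, 418, 823 and 411 genes were called, with 1 marker each, and in the lists 3 other leukocyte, 1 other endothelial, 7 club, and 1 erythroid and platelet each, 4, 10 and 4 epithelial identity, and 3, 6 and 3 multiciliated. These 4 settings were chosen after seeing the data.

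Without the block, DESeq2 called 250 genes, with 3 other leukocyte, 1 other endothelial, 1 epithelial identity and 1 club. No expression filter gave 413 genes, with 5 other leukocyte, 1 other endothelial, 2 other mesenchymal, 2 epithelial identity, 2 multiciliated, 2 club, and 1 erythroid and platelet. Sparc lost its call with the library size only and with the stricter filter (0 other mesenchymal genes called). The library size only also moved the median over all genes from 0.03 to 0.29 on the log2 scale, the calls to 22 higher and 54 lower from 6 and 76, and the endothelial sum to 0.067. That sum was -0.63 per kilobase and -0.89 without Kdr.

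Leaving out 1 library or mouse without the block gave 22 to 113 genes called, 0 to 1 markers, 0 to 1 in the other endothelial, other mesenchymal, and erythroid and platelet lists, 4 to 9 alveolar type 2 and 0 to 4 club. With the block and 1 mouse left out, also chosen after seeing the data, it gave 59 to 633 genes (380 without mouse 2), 0 to 5 markers, 1 to 4 other leukocyte, 0 to 2 other endothelial, 0 to 2 other mesenchymal, 0 to 6 epithelial identity, 9 to 11 alveolar type 2, 0 to 4 multiciliated, 5 to 8 club, and 0 to 1 erythroid and platelet. The leukocyte sum ranged from -2.37 to -0.37, the highest without the negative library of mouse 2. The endothelial sum ranged from -0.51 to 0.061, the highest without the positive library of mouse 3, and the mesenchymal one from -1.23 to -0.18. The sign turned for Chil3 (range -2.96 to 0.11, the highest without the negative library of mouse 2) and Upk3b (-1.53 to 0.25, the highest without the negative library of mouse 1). It also turned for Cnn1 (-0.28 to 0.55, under 0 without mouse 3, -0.21, without its positive library, or without the negative one of mouse 2, -0.19) and for Msln (-2.22 to 0.37, above 0 without mouse 1 or without its negative library, 0.26). Acta2 ranged from -0.45 without mouse 2 to 1.14 without the negative library of mouse 1, and was under 0 also without mouse 3's negative library (-0.34), mouse 1's positive one (-0.17) or mouse 2's (-0.33). Col1a2 ranged from -1.49 to 0.59, above 0 without mouse 1 (0.55), its negative library or the positive library of mouse 3 (0.17), and Vwf from -1.77 to 0.22, above 0 without mouse 1. With the block, Cnn1 was at -0.066 without mouse 3, Acta2 at -0.68 without mouse 2, and, without mouse 1, Msln at 0.028, Col1a2 at 0.0019 and Vwf at 0.12. The other 15 of the 20 fitted markers kept their sign in these fits. The cause was not tested.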
